A study of Mus musculus with 12 samples.

Results

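Of the 12 libraries of RNA from eGFP+ cells of the mouse spinal cord, 5 held far more transcripts of microglia than the others, and injury was compared within these 5. They were chosen by the summed normalized counts of Cx3cr1, P2ry12, Csf1r and Aif1, 4 genes used as microglia markers. Injured cord gave 3 of these libraries, namely replicate 3 of HS 1 week, replicate 1 of HS 2 weeks and the only FT 1 week sample. Non-injured (NI) cord gave 2, replicates 2 and 3. The other 7 libraries were NI replicate 1, HS 1 week replicates 1 and 2, HS 2 weeks replicate 2 and FT 2 weeks replicates 1 to 3. All cells came from adult male Aldh1l1-EGFP mice on a Swiss Webster background, in which the promoter of the astrocyte gene Aldh1l1 drives eGFP, and were sorted by flow cytometry from a piece of thoracic cord around the lesion or from the matching piece in NI mice. HS is a lateral hemisection and FT a full transection. The injured arm therefore pools 2 severities and 2 times with 1 library of each condition, and an effect of severity cannot be told apart from one of time or of a single library. By the study's methods each group drew on more animals than it has libraries.

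Microglia are the resident phagocytes of the central nervous system. At rest they carry surveillance receptors such as P2ry12, which senses nucleotides from damaged cells. After injury they are known to take up debris through complement, Fc and lipoprotein receptors and to break it down in lysosomes. Type I and type II interferons act on them to induce antiviral genes, chemokines and the proteins that load and present antigen. Astrocytes in injured tissue are known to raise Gfap and the protease inhibitor gene Serpina3n.

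A short run of bases near the start site is common to many interferon-induced genes, and it is shown here because these genes form the group with the most members past the test below. The motif searched was GAAA, any 2 bases and GAAA again, on either strand, a core of the interferon-stimulated response element, in the 250 bases before the start site. Of the RefSeq promoters used, 1 per gene, 3.04% held it (821 of 27025), and of the tested genes with a promoter 2.69% did (318 of 11820). Among interferon response genes 14 of the 22 with a promoter held it (63.6%). Of 39 genes that were higher after injury and had a promoter, 7 held it (17.9%). Outside the interferon response list 3 of 32 did (9.38%). Within that list 4 of the 7 higher genes with a promoter did (57.1%), against the 63.6% of the whole list. The stretches of these 4 genes are given 5′ to 3′ on the gene's strand from RefSeq (GRCm38.p6), with every match in capitals and overlapping matches joined in 1 run, 1 match in Cxcl10, 2 in Oas1a, 3 in Isg15 and 1 in Rsad2. All 4 lie on the minus strand, in Cxcl10 at chr5:92349068-92349127, in Oas1a at chr5:120907526-120907564, in Isg15 at chr4:156200850-156200909 and in Rsad2 at chr12:26456538-26456597. The match in Rsad2 reads in the reverse orientation. A match is a description of letters and was not tested as a binding site.
Cxcl10: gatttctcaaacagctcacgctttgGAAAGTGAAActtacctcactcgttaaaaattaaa
Oas1a: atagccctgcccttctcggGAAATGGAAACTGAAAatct
Isg15: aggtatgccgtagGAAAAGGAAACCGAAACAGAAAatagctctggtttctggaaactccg
Rsad2: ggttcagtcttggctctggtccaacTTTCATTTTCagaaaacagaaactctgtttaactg

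The marker sum that chose the libraries was 1927 and 2624 normalized counts in the NI libraries. It was 4206 in HS 1 week replicate 3, 3048 in HS 2 weeks replicate 1 and 2467 in the FT 1 week library, so that the FT library lay between the NI libraries. In the other 7 libraries it ranged from 186.1 to 927.7, and the nearest values on either side of the choice were 1927 in NI replicate 2 and 927.7 in HS 1 week replicate 1. Each library had between 8270643 and 15562378 reads, and 1 read was worth 0.0612 to 0.134 normalized counts. The labels call the cells astrocytes. Transcripts of oligodendrocytes were nevertheless abundant in every library, with sums over 14 genes of 55131 to 85542 in the 5 libraries, while 20 genes of homeostatic astrocytes summed to 6929 to 15950. Aldh1l1 itself had 59.4 and 10.2 normalized counts in the NI libraries and 13.8, 35.4 and 48.5 in the HS 1 week, HS 2 weeks and FT libraries. Values from here on are given in that order. In such mixed samples, fewer cells of a type and less RNA per cell cannot be told apart.

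**Figure D1:**
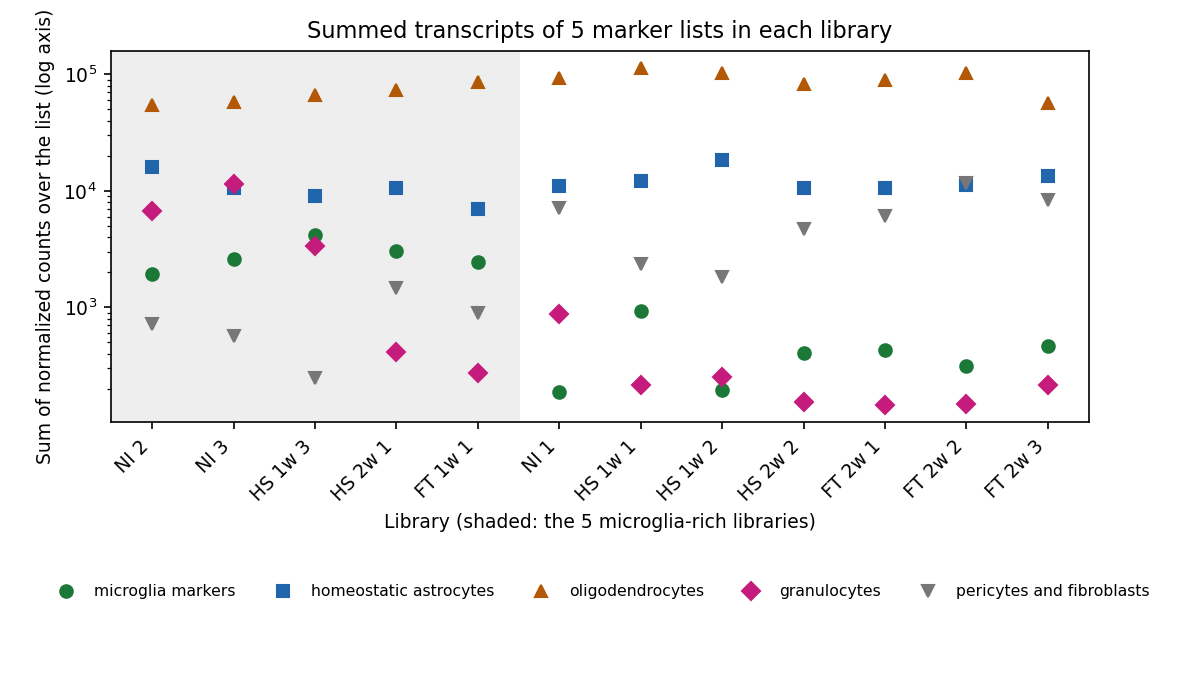
Summed normalized counts (log axis) of the genes of 5 marker lists in each of the 12 libraries, with 1 point per list and library and the 5 microglia-rich libraries shaded. Microglia markers lie between 1927 and 4206 in the shaded libraries and at 927.7 or below in the others, and granulocyte genes are highest in NI replicates 2 and 3 and HS 1 week replicate 3.

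Other cell types did not stand at the same level in both arms. The 16 measured granulocyte genes encode proteins of neutrophils and eosinophils, among them granule and calcium-binding proteins and the receptors Cxcr2 and Csf3r. They summed to 6715 and 11382 in NI and to 3391, 417.5 and 275.3 in the injured libraries. S100a8 had 1573 and 3291 in NI and 579, 18.1 and 9.54 after injury. B cell and erythroid genes (11 measured) summed to 71.8 and 101.1 in NI against 18.1 to 23.8, and homeostatic astrocyte genes to 15950 and 10638 against 9112, 10666 and 6929. For genes of monocytes and border macrophages the sums overlapped between the arms, at 342.3 and 599.7 against 367.4, 751.7 and 284.9. The single genes did not all do so. Of 14, 6 were lower and 2 higher in every injured library (19.5% and 21.6% over all tested genes), and 6 overlapped. Among the 14, Ccr2, the receptor of inflammatory monocytes, had 20.3 and 27.9 in NI and 13.2, 4.77 and 5.51 after injury. The part of these cells in the results below was not tested.

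C4b, Serpina3n, Ccl5, Lgals3bp, Usp18 and Irf7 were among the genes that rose after injury, and Olig2 and Dynll2 among those that fell. Of the gene lists, 9 of 30 interferon response genes, 5 of 25 lysosomal genes, 3 of 19 chemokine and cytokine genes and 2 of 18 complement genes rose. Of 16183 genes tested, 55 were higher and 6 lower at an adjusted p under 0.05 and at least 2-fold (limma-trend on log2 of normalized counts plus 1, with 3 residual degrees of freedom). That is 0.377% of the tested genes, 0.34% higher and 0.0371% lower. All 61 had arms that did not overlap, which was also so for 21.6% (higher) and 19.5% (lower) of all tested genes. The log2 differences of the 55 ranged from 1.02 to 5.23 with a median of 2.10, while the median of all tested genes was -0.03. An unadjusted p under 0.05 was found for 3371 genes. In the FT 1 week library 31 of the 55 had their highest value, in HS 2 weeks replicate 1 17 and in HS 1 week replicate 3 the remaining 7. The p-values measure the spread between these 5 libraries, which were picked by measured transcripts, and are not independent of that choice. Adjusted p-values below are those of limma-trend over all tested genes, and log2 differences are given with their standard error.

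The count depended on single libraries. Without NI replicate 2, NI replicate 3 or HS 2 weeks replicate 1 no gene passed limma-trend, although 1729, 2168 and 2184 genes had an unadjusted p under 0.05. Without HS 1 week replicate 3 it was 917 (380 higher, 537 lower), and all 61 were among them. Without the FT 1 week library it was 78 (75 higher, 3 lower), with 39 of the 55 and 2 of the 6 among them. With whole reads recovered from the table, edgeR's quasi-likelihood fit called 15 genes, all of them higher and among the 55. Scaled to the same sum of the 4 markers, which moved the median of all genes to -0.44, the split was 158 higher and 1416 lower. Of the 55, 34 were called higher again under this scaling. It divides by the values that chose the libraries, and the standard errors of the fit changed with it. For C3ar1 the standard error went from 0.16 to 0.45. The calls with and without this scaling are therefore not like for like.

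On the log2 scale with a pseudocount of 1 the largest rise was that of C4b, a complement component that tags targets for phagocytes and lies on chromosome 17 from 34728380 to 34743882 (GRCm38). It had 31.0 and 27.3 normalized counts in NI and 644.6, 1355 and 1629 after injury, a log2 difference of 5.23 ± 0.38 (standard error) and a 37.4-fold change on the scale of normalized counts plus 1 (adjusted p = 0.0128, limma-trend). The lowest injured library was far above both NI libraries. By the ratio of mean normalized counts, 41.5 for C4b, Mcpt2 described below was higher. C4a is nearly identical to C4b, and reads may have been split between them. It had 0.894 and 0.576 against 5.26, 9.46 and 9.40, and missed the test (log2 difference 2.35, adjusted p = 0.0507).

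Serpina3n had 36.3 and 24.4 in NI and 407.8, 779.6 and 1666 after injury (log2 difference 4.72 ± 0.54, adjusted p = 0.0328, limma-trend). Its neighbour Serpina3m, from the same cluster of similar inhibitor genes, rose from 0.383 and 0.360 to 11.6, 16.8 and 19.2. Both are close copies within a family, so that reads can be shared. Among 18 reactive astrocyte genes Serpina3n and Cxcl10 rose, and the median log2 difference of the list was 0.29, which turned to -0.12 under the scaling by the 4 markers. In every injured library 5 of the list were higher and 1 lower (21.6% and 19.5% over all tested genes). Lcn2 of the list went the other way and missed the test, with log2 differences of -5.14 to -2.73 over the alternative settings. Gfap had 100.2 and 33.3 in NI and 101.5, 131.6 and 304.1 after injury and missed the test (log2 difference 1.45, adjusted p = 0.227). The HS 1 week value lay within 2 counts of NI replicate 2. Stat3, a signal transducer that acts upstream of many reactive genes, had 124.1 and 112.6 against 239.5, 301.1 and 338.8 (adjusted p = 0.0508), with arms that did not overlap.

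Of 18 complement genes, C4b and C3ar1 rose and 16 missed the test, and the median log2 difference was 1.17. C3ar1, the receptor of the C3a fragment on myeloid cells, had 42.6 and 47.7 in NI and 208.0, 197.2 and 161.2 after injury (2.03 ± 0.16, adjusted p = 0.013). The injured libraries differed less from each other than from NI. C1qb, a chain of the C1q recognition molecule made by microglia, had 638.8 and 644.0 against 1701, 1916 and 2199, and missed the threshold at an adjusted p of 0.0507. Cfb, the protease of the alternative pathway, had 5.81 and 4.89 against 59.4, 46.6 and 276.9 (adjusted p = 0.0729).

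Interferon response genes were the group with the most members past the test. Of 30, 9 rose (Irf7, Usp18, Cxcl10, Ifi44, Ifit2, Oas1a, Isg15, Oas2 and Rsad2), none fell, and 28 had injured libraries all above both NI libraries (21.6% over all tested genes). The median log2 difference was 2.15 against -0.03 for all tested genes, and 1.71 under the scaling by the 4 markers. Without the FT 1 week library 13 of the 30 were called higher, without HS 1 week replicate 3 20 were, and by the quasi-likelihood test of edgeR 1 was.

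Usp18, which removes the ubiquitin-like protein Isg15 and restrains interferon signalling, had 12.6 and 9.72 in NI and 118.0, 102.2 and 140.3 after injury (log2 difference 3.32 ± 0.19, 9.96-fold, adjusted p = 0.0128). Irf7, a transcription factor that amplifies type I interferon, had 11.9 and 11.6 against 91.2, 98.1 and 183.2 (3.22 ± 0.30, adjusted p = 0.0217). In both genes the HS libraries were close to each other and FT was highest. Isg15 had 4.98 and 5.33 against 23.7, 30.6 and 49.2, and Ifit2, which binds foreign RNA, had 18.0 and 12.9 against 70.3, 86.0 and 134.6. Oas1a and Oas2, sensors of double-stranded RNA, both rose. Oas1a had 2.49 and 4.25 against 19.3, 24.0 and 29.3, and Oas2 3.96 and 3.09 against 17.1 or more in each injured library. Oas1g and Oasl1 of the same family, the RNA sensor gene Dhx58, Trim30a, Trim30d and Ifi202b rose as well and are outside the list. The Oas1, Trim30 and Ifi200 genes are families of close copies, and their values are uncertain where reads map to several members.

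Part of the interferon list was highest by far in FT 1 week. Iigp1, an interferon-inducible GTPase that attacks vacuoles of parasites, had 2.17 and 2.09 in NI, 9.24 and 10.8 in the HS libraries and 575.4 in the FT library. Gbp2, a guanylate-binding protein, had 10.4 and 9.50, then 15.7 and 17.9, then 337.6. Igtp, Irgm1, Irgm2, Gbp3, Gbp6 and Gbp7 also had their highest value in the FT library. None of these 8 GTPase genes passed the test (adjusted p = 0.183 to 0.453), and with 1 FT library the level has no replicate. Ifitm3 had 213.3 and 164.2 against 196.1, 158.7 and 222.0, and its arms overlapped.

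**Figure D2:**
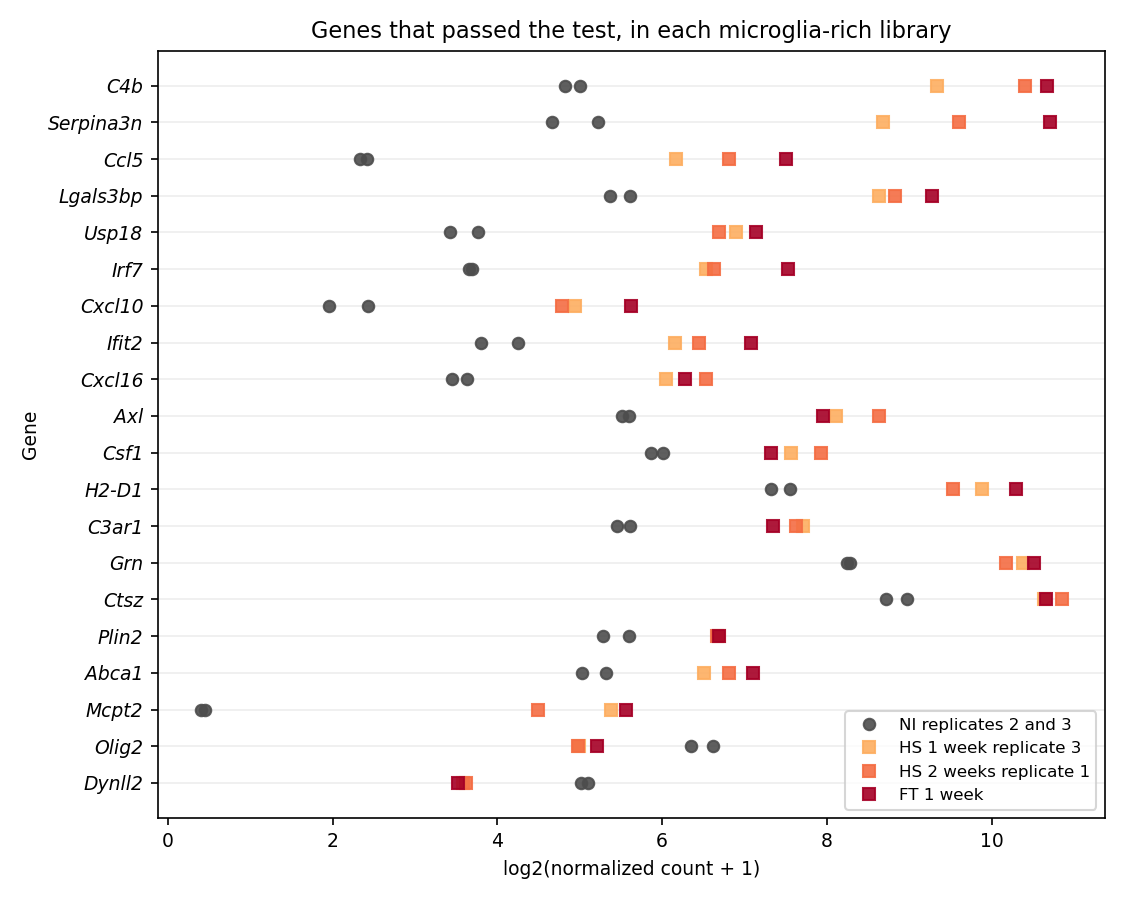
Log2 of the normalized count plus 1 (x axis) of 20 genes that passed the test (y axis) in each of the 5 microglia-rich libraries, with grey circles for NI replicates 2 and 3 and squares for the 3 injured libraries. In the upper 18 genes every injured library lies above both NI libraries, as for C4b at 644.6 or more against 31.0 or less, and in Olig2 and Dynll2 every injured library lies below both.

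Chemokines rose in part. Of 19 chemokine and cytokine genes Ccl5, Ccl12 and Cxcl16 passed the test and 16 did not, with a median log2 difference of 0.81. Ccl5, which draws T cells and monocytes, had 4.02 and 4.32 in NI and 71.1, 110.9 and 180.8 after injury (4.46 ± 0.36, 21.99-fold, adjusted p = 0.0133). Cxcl16, a membrane-bound chemokine and scavenger receptor, had 9.89 and 11.4 against 65.1, 91.9 and 76.4 (2.75 ± 0.19, adjusted p = 0.0128). Ccl12, a ligand of Ccr2, had 49.6 and 47.9 against 185.3, 266.6 and 336.6. Cxcl10, which attracts Cxcr3-bearing T cells and is counted with the interferon genes, had 2.87 and 4.39 against 29.8, 26.6 and 48.3. For all 4 the lowest injured library was several times the higher NI library.

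Classical inflammatory cytokines overlapped between the arms. Il1b had 65.9 and 79.0 in NI and 144.4, 55.5 and 47.0 after injury, Tnf had 13.8 and 18.3 against 66.8, 33.0 and 17.3, and Ccl2 had 118.2 and 143.7 against 168.6, 100.8 and 156.2. Both Il1b and Tnf were highest in HS 1 week replicate 3. The adjusted p of these 3 genes was 0.997, 0.294 and 0.868 (limma-trend).

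Among genes of antigen presentation, H2-D1, a class I heavy chain, rose from 159.1 and 186.7 to 945.3, 739.0 and 1252 (2.47 ± 0.25, adjusted p = 0.0257). It was the only 1 of 13 MHC class I genes to pass, while 11 had arms that did not overlap, all higher (21.6% over all tested genes), and the median log2 difference was 1.70. H2-K1 had 70.8 and 90.8 against 300.7, 329.2 and 708.7 (adjusted p = 0.0632), and B2m, the light chain, 581.7 and 770.4 against 1489, 2422 and 3606 (adjusted p = 0.0932). H2-Q2, which is outside the list, rose from 8.11 and 8.49 to 55.1, 47.5 and 87.7. Class I genes are near copies of each other, and their reads can be shared.

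In the list of 12 genes of MHC class II presentation only Cd86 passed, a costimulatory ligand of T cells and not itself a class II chain. It rose from 31.5 and 44.4 to 105.0, 106.5 and 106.5 (adjusted p = 0.0337, limma-trend). In the list 8 genes overlapped between the arms (9529 of 16183 over all tested genes), and 4 were higher in every injured library (21.6% over all tested genes). Cd74, the invariant chain, had 518.2 and 838.7 in NI and 585.6, 1543 and 6252 after injury. H2-Ab1 had 85.2 and 133.6 against 68.1, 121.0 and 1062, so that only the FT 1 week library was above NI. The adjusted p was 0.402 for Cd74 and 0.642 for H2-Ab1. Whether class I and class II differed was not tested.

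Lysosomal genes rose in part. Of 25, 5 rose (Grn, Ctsz, Gla, Ctsa and Gusb), none fell, 23 had injured libraries all above NI (21.6% over all tested genes), and the median log2 difference was 1.04. Under the scaling by the 4 markers the median was 0.61. Grn was called again under that scaling and by edgeR's quasi-likelihood test, while Ctsz, Gla, Ctsa and Gusb were called by neither. Without HS 1 week replicate 3 all 5 were called again, and without the FT 1 week library 3 were. Grn, the progranulin gene, which is needed for lysosome function, had 301.7 and 309.2 in NI and 1334, 1151 and 1465 after injury (2.10 ± 0.19, adjusted p = 0.018). Ctsz, a cysteine protease, had 420.9 and 499.8 against 1586, 1846 and 1615 (1.87 ± 0.20, adjusted p = 0.0328). Gusb, which cleaves glucuronides, had 62.0 and 83.1 against 201.3, 220.0 and 186.7, and Gla, the alpha-galactosidase, 7.66 and 8.28 against 29.4, 24.0 and 31.8. In these genes the 3 injured libraries were nearer to each other than to NI. Ctsd, an aspartic protease, had 2026 and 2254 against 10265, 13206 and 6646 and missed the test (adjusted p = 0.0931). Mcoln1, a lysosomal channel, and Lamp1, a membrane protein, had log2 differences of -0.05 and -0.01.

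Further genes that rose are known from phagocytes and other immune cells, and were put together here after their values were seen. Axl, which recognises phosphatidylserine on dying cells through Gas6, had 47.6 and 44.7 in NI and 274.8, 397.4 and 247.4 after injury (2.68 ± 0.22, 6.39-fold, adjusted p = 0.0133). Csf1, the growth factor of microglia and macrophages, had 57.4 and 63.6 against 188.1, 241.8 and 158.6 (1.66 ± 0.20, adjusted p = 0.0338). Mpeg1, which forms pores in the phagosome, had 230.8 and 295.2 against 1038, 1032 and 829.9 (adjusted p = 0.0322). Slc11a1, a metal transporter of the phagosome, rose from 53.2 and 65.7 to 200.8, 245.5 and 226.7, and P2ry6, a receptor for UDP that triggers uptake, from 47.2 and 51.3 to 134.0, 128.8 and 122.5. Cd22, an inhibitory lectin, had 2.04 and 4.10 against 31.0, 64.0 and 36.8, and Lag3, an inhibitory receptor, 11.2 and 13.2 against 164.1, 174.0 and 64.2. Lgals3bp, a secreted glycoprotein, had 48.0 and 40.1 against 394.4, 454.2 and 619.0 (3.42 ± 0.22, adjusted p = 0.0128). For each of these the lowest injured library was at least 2-fold above the higher NI library.

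Of 22 genes of activated microglia, Axl and Csf1 rose, 20 missed the test and none fell, with a median log2 difference of 1.40. Injured libraries were all above NI for 15 of them (21.6% over all tested genes). Several members were highest in HS 2 weeks replicate 1. Apoe, the lipid carrier, had 1116 and 654.5 in NI and 3329, 11328 and 5707 after injury (adjusted p = 0.081). Spp1, which encodes osteopontin, had 38.5 and 72.4 against 715.2, 2474 and 331.6 (adjusted p = 0.0776), and Cst7, a protease inhibitor, 4.85 and 15.5 against 75.0, 234.5 and 209.0 (adjusted p = 0.0588). Trem2, a lipid receptor, had 248.9 and 382.9 against 695.9, 806.7 and 455.7 (adjusted p = 0.141). Without HS 1 week replicate 3, 13 of the 22 were called higher (380 of all 16183 tested genes). Without the FT 1 week library 4 were (75 of 16183), and by edgeR's quasi-likelihood test 1 was (15 of 16183). Without HS 2 weeks replicate 1 none was.

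Genes of lipid handling went in both directions. Of 20, the cholesterol exporter gene Abca1 and the lipid droplet gene Plin2 rose, 1 gene fell, and 17 missed the test, with a median log2 difference of 1.23. Plin2 had 47.5 and 38.0 in NI and 102.0, 100.2 and 102.3 after injury (1.24 ± 0.15, adjusted p = 0.0338), and Abca1 39.0 and 31.5 against 89.7, 110.9 and 136.3 (1.63 ± 0.21, adjusted p = 0.0433). Ch25h, which makes an oxysterol, had 3.13 and 8.06 against 55.3, 88.9 and 23.5 (adjusted p = 0.0749). The sterol sensor gene Insig1 had 273.6 and 205.0 against 108.2, 118.7 and 93.3 (adjusted p = 0.0632). Sqle and Hmgcs1, enzymes of cholesterol synthesis, had log2 differences of 0.02 and -0.16.

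**Figure D3:**
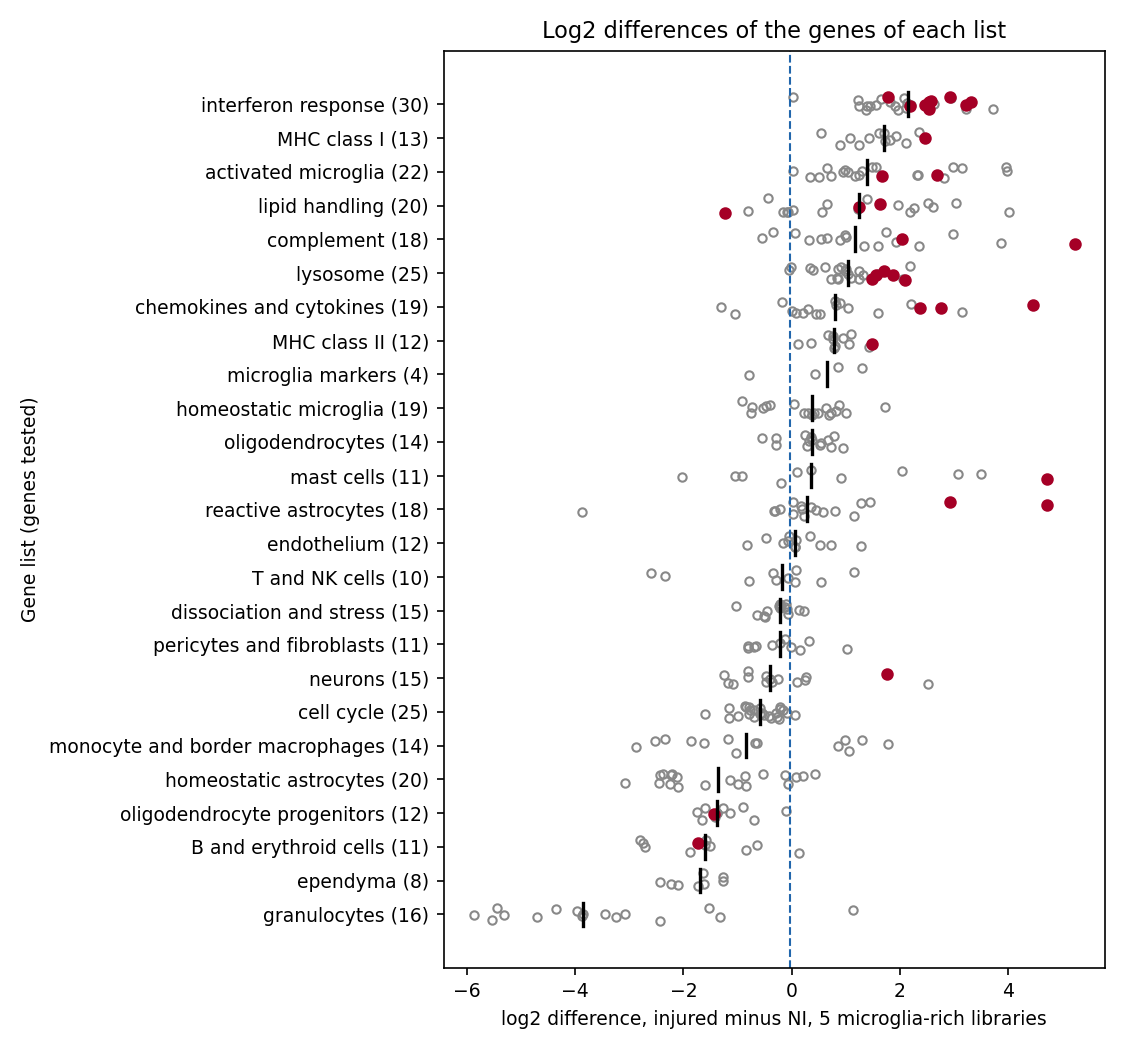
Log2 differences, injured minus NI, in the 5 microglia-rich libraries (x axis) of the genes of each list (y axis, number of genes tested in brackets), with filled points for genes that passed the test and open points for the others, a black bar at the median of the list and a dashed line at the median of all tested genes (-0.03). Medians run from 2.15 for interferon response genes to -3.86 for granulocyte genes, of which none passed.

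The markers and the homeostatic microglia genes are given as values, since the former chose the libraries and the latter follow them. Csf1r, the receptor of Csf1, had 833.0 and 1021 normalized counts in NI and 2326, 1606 and 1261 after injury. Cx3cr1, the fractalkine receptor, had 490.2 and 673.8 against 1128, 746.8 and 550.6. P2ry12 had 515.0 and 819.4 against 619.9, 459.0 and 189.1, and Aif1, which encodes the actin-binding protein Iba1, 88.8 and 109.8 against 132.2, 235.6 and 466.7. P2ry12 and Aif1 thus ran in opposite orders within the injured arm, with P2ry12 lowest and Aif1 highest in FT 1 week. Of 19 measured homeostatic genes, 7 had injured libraries all above NI, 1 (Slc2a5) all below and 11 overlapped. Over all tested genes 21.6% were all above and 19.5% all below. The homeostatic genes summed to 3713 and 4858 in NI and 6599, 5443 and 3164 after injury. Tmem119, a microglial membrane protein, had 246.6 and 310.2 against 258.5, 181.8 and 97.2, and Siglech 142.2 and 178.6 against 184.6, 126.9 and 56.0. Both were lowest in FT 1 week. The receptor genes Itgam and Ptprc were higher in every injured library, with 105.5 and 132.7 against 253.4, 241.2 and 168.0, and with 111.2 and 127.1 against 243.8, 231.0 and 163.8. The list's median log2 difference was 0.38, and -0.11 under the scaling by the 4 markers.

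Of the 6 genes that fell, the mean of 3, Ly6d and Apol11b among them, was under 5 normalized counts. Olig2, a transcription factor of the oligodendrocyte lineage, had 97.5 and 80.4 in NI and 30.8, 30.5 and 35.9 after injury (-1.43 ± 0.16, adjusted p = 0.0328). Dynll2, a dynein light chain, had 31.2 and 33.3 against 11.01, 11.31 and 10.48 (-1.48 ± 0.18, adjusted p = 0.0392). The injured libraries of both genes were within a narrow range. NI replicate 1, which is outside the 5 libraries, had 33.2 for Olig2, level with the injured libraries. For 3 of the 6 genes, Olig2 among them, NI replicate 1 was at or below the highest microglia-rich injured library. In the other 7 libraries the median log2 difference of the 6 genes was -0.027. Ly6d marks lymphoid cells, and the summed B cell and erythroid genes were lower after injury, as given above. Further genes with arms that did not overlap missed the test, among them Olig1 (227.0 and 192.1 against 93.3, 64.9 and 84.9, adjusted p = 0.0507), Vegfa (30.8 and 16.7 against 4.40, 6.12 and 4.16, adjusted p = 0.0641) and the lipid enzyme gene Acsl3 (259.8 and 126.9 against 48.8, 49.5 and 45.9, adjusted p = 0.0588).

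Genes of oligodendrocyte progenitors had a median log2 difference of -1.38, with Olig2 lower and the other 11 past no threshold. Several followed single libraries: Gpr17, of committed progenitors, had 288.6 and 319.7 in NI and 551.9, 61.9 and 24.4 after injury. Of the 14 oligodendrocyte genes none passed, the median was 0.37 and -0.13 under the scaling by the 4 markers, and Enpp6 had the smallest adjusted p (200.1 and 210.2 against 350.6, 394.3 and 442.5, adjusted p = 0.0641). Homeostatic astrocyte genes had a median of -1.37 and none passed. Slc1a2, the main glutamate transporter, had 609.1 and 116.0 in NI and 24.2, 68.3 and 67.2 after injury, and Fgfr3 236.0 and 29.3 against 10.5, 22.2 and 15.3, so that NI replicate 2 set much of the difference. Without NI replicate 2 the median of the list was -0.35.

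Neuronal genes had a median log2 difference of -0.41, and Eno2, a glycolytic enzyme common in neurons, was the 1 of 15 to rise (19.4 and 20.7 against 56.3, 68.9 and 87.8, adjusted p = 0.0338). In every injured library 3 of the 15 were higher and 6 lower (21.6% and 19.5% over all tested genes). Snap25 and Stmn2 missed the test, with log2 differences of -1.55 to -0.86 and -1.71 to -0.83 over the alternative settings. Tubb3, a neuronal tubulin, had 23.9 and 23.4 against 82.2, 127.7 and 259.7 and missed the test (adjusted p = 0.0673), and Dcx, a marker of young neurons, had 3.83 and 3.60 against 6.24, 3.91 and 3.89 (adjusted p = 0.661). Fgfr4 had 1.15 and 2.45 against 7.59, 6.69 and 10.3 (adjusted p = 0.0737). The granulocyte list had a median of -3.86, with 14 of 16 genes lower and 1, Csf3r, higher in every injured library (19.5% and 21.6% over all tested genes). Yet none of the 16 passed. Without HS 1 week replicate 3 15 were called lower (537 of all 16183 tested genes), and in a model of all 12 libraries 10 were (169 of 16303). Without the FT 1 week library or by edgeR's quasi-likelihood test none was. Mmp8, a neutrophil collagenase, had 67.9 and 56.6 against 22.6, 2.63 and 1.21 (adjusted p = 0.125). Cell cycle genes had a median of -0.58 and none of 25 passed, with Top2a at 44.6 and 75.7 against 32.4, 15.7 and 32.6. Ependymal genes had a median of -1.69 over 8 genes, T and NK cell genes -0.18 over 10, pericyte and fibroblast genes -0.22 over 11, genes of dissociation and stress -0.21 over 15 and border macrophage genes -0.85 over 14, and none of these passed. For the endothelium the median was 0.06 over 12 genes, and -0.36 under the scaling by the 4 markers.

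Of 11 mast cell genes 1 rose and 10 missed the test, 4 were higher and 2 lower in every injured library, and the median log2 difference was 0.35. Over all tested genes 21.6% were higher and 19.5% lower in every injured library. The gene that rose was Mcpt2, a protease of mucosal mast cells, with 0.319 and 0.360 normalized counts in NI and 40.7, 21.4 and 46.2 after injury (4.72 ± 0.37, adjusted p = 0.013). The NI values correspond to 5 reads in each library, and the ratio of the mean normalized counts was 106.4. Tpsab1 and Cma1, further mast cell proteases, had 0.0638 and 0.216 against 27.2, 8.97 and 6.58, and 0.128 and 0.144 against 11.1, 2.63 and 18.9, and both missed the test (adjusted p = 0.0632 and 0.0935). Kit, a defining receptor of these cells, overlapped between the arms at 15.4 and 29.4 against 29.7, 24.0 and 16.4. Fcer1a, a chain of their IgE receptor, was lower in every injured library at 4.85 and 11.9 against 3.79, 2.35 and 3.63, as was Hdc, which makes histamine, at 37.0 and 29.7 against 24.96, 3.13 and 4.43 (adjusted p = 0.209 and 0.1999). Mcpt4 and Tpsb2 were at 0 in 1 library each.

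The other 7 libraries show how far the same genes moved where microglia transcripts were few, with 6 injured libraries against the single NI replicate 1. Their conditions differ as well, since FT 2 weeks is only among these 7 and FT 1 week only among the microglia-rich libraries. Pericyte and fibroblast genes summed to 1836 to 11748 here and to 248.0 to 1460 in the microglia-rich libraries. Microglia content, condition and other cells cannot be told apart in any difference between the classes, here or in the paragraphs below. In 1 model of all 12 libraries with 8 residual degrees of freedom, 4 of 16303 genes passed there (0.0245%), and of the 55 genes 1, C4b, was among them. Of the 55, 49 had a positive log2 difference in these libraries, 17 of at least 1, with a median of 0.68. C4b had 62.5 in NI replicate 1 and 595.4 to 1489 in the other injured libraries (log2 difference 3.94), and Serpina3n 126.4 against 919.1 to 1938 (3.31). Mcpt2 was at 0.157 against 7.46 to 158.2 (5.13), and Mpeg1 at 22.1 against 30.0 to 267.9 (2.28).

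Other genes had small or negative differences there. Cxcl16 had 30.8 in NI replicate 1 and 16.3 to 37.95 in the injured libraries (-0.16), Ccl12 99.6 against 17.2 to 74.7 (-1.73), and Nrp1, a coreceptor of semaphorins, 55.6 against 29.3 to 68.7 (-0.0029). Cwc22, a splicing factor named here after its values were seen, had 14.0 and 19.5 in NI replicates 2 and 3, 157.5, 112.6 and 117.1 in the microglia-rich injured libraries, but 165.2 in NI replicate 1, so that it differed between NI libraries as much as between the arms. Cwc22 and Sorbs3 were the 2 genes of the 55 for which NI replicate 1 reached the lowest microglia-rich injured library.

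The difference of the injury effects between the microglia-rich and the other libraries was tested in the same model, and no gene passed (0% of 16303), with 1349 at an unadjusted p under 0.05. The smallest adjusted p among the 55 was 0.062, shared by Cwc22 (difference of log2 differences 3.37) and Trim30d (3.02). It was 0.0988 for Cxcl16 (2.90) and 0.245 for Ccl12 (4.10). The test rests on 1 NI library in the other class, whose spread comes from the remaining libraries, and without HS 1 week replicate 3 it called 61 genes (5 higher, 56 lower).

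**Figure D4:**
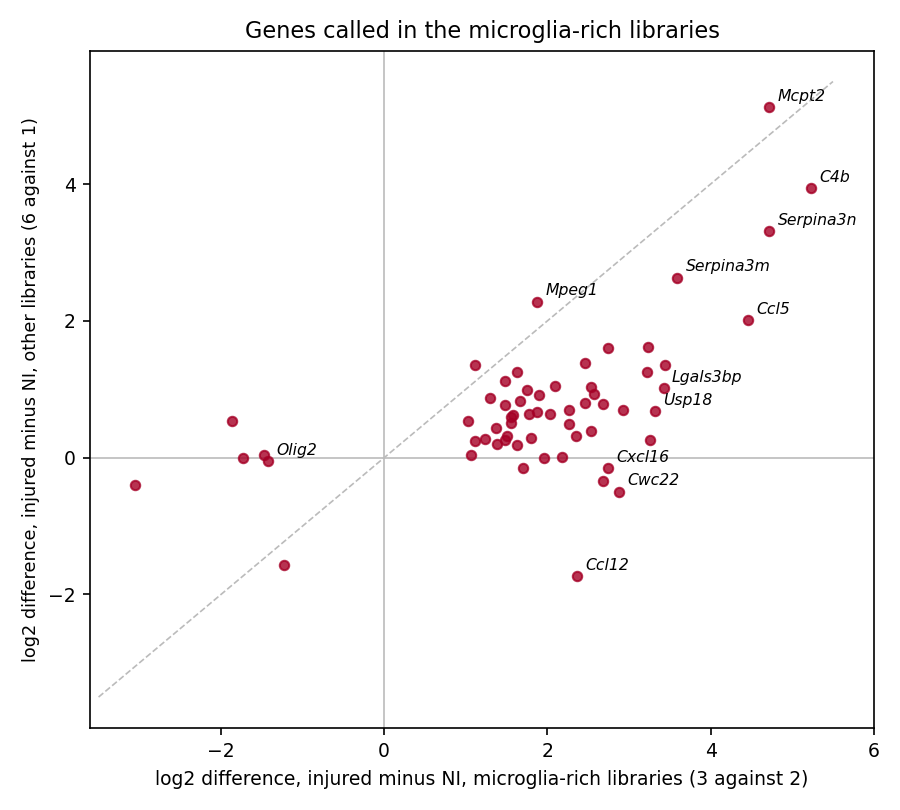
Log2 difference, injured minus NI, of the 61 genes that passed the test in the microglia-rich libraries (x axis, 3 against 2 libraries) and in the other libraries (y axis, 6 against 1), with a dashed line of equal differences. Of the 55 genes to the right, 49 lie above 0 on the y axis, C4b and Mcpt2 among the highest, and Ccl12 lies lowest at -1.73.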

How the data were processed

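PolyA RNA of FACS-sorted eGFP+ cells was sequenced in 12 libraries. The submitters' processing notes name TopHat2 2.0.9, HTSeq 0.5.4p3, edgeR 3.3.6 and mm10 (GRCm38). The deposited signal values cover 16389 genes and are read counts over a library-wide scaling constant, as normalized by the authors. In every library 100% of the values came out as whole reads (tolerance 1e-06).

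Genes with a mean of at least 0.5 over the 5 libraries were tested on log2(normalized count + 1) with limma-trend (limma 3.58.1, R 4.3.3), with Benjamini-Hochberg adjustment over all of them, and called at an adjusted p under 0.05 and at least 2-fold. The prior degrees of freedom were 3.638. A 4-class model of all 12 libraries gave the other contrasts (prior degrees of freedom 5.797). Alternatives on the recovered reads used edgeR 4.0.16 and DESeq2 1.42.0. The code was tested on simulated data. Replicates are labelled as samples of a group. In the test within the 5 libraries the injured arm holds a single library per condition. Its p-values therefore measure spread between conditions and between libraries together. The 4-class model also pools conditions within a class. Precision from depth covers counting error only.

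The libraries, gene lists and tests were chosen with earlier results of these data known. Genes were named by rule: the 4 markers, the genes the study names, the 12 strongest called rises and at most 12 falls (mean of at least 5, arms not overlapping, no clone names, filled with the smallest p), and up to 4 members of each list by p. Other called genes and list members were named after their values were seen. Positions are those of GENCODE M21 (426 of 428 symbols found), and promoters those of RefSeq (GRCm38.p6) outside chromosome 18. The symbols Chil3 and Spi1 were not found among the genes used here, and neither were some other list symbols, such as Il10 and Ear1. Genes were matched by symbol alone, so that a gene listed under another name would be missed. Some genes are not reported here. No sequence of a protein was used.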

Additional observations from a re-analysis of the deposited data

How the results depend on the processing

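The 61 calls in the microglia-rich libraries (55 higher, 6 lower) stayed within 1.5 times under pseudocounts of 0.25 (65) and 4 (53), no filter (61), median ratios (54) and the adjusted p alone (61). A filter at a mean of 5 gave 93 (87 higher), the same column total 31 (27 higher), the same marker sum 1574 (158 higher, 1416 lower), limma without trend 30 (28 higher, 2 lower), all 12 libraries in 1 model 367 (198 higher, 169 lower, with 49 of the 61), the edgeR quasi-likelihood test 15 (15 higher, 0 lower), DESeq2 740 (420 higher, 320 lower) and the edgeR likelihood ratio test, added after the values were seen, 722 (378 higher, 344 lower, with all 61). Leaving out 1 library gave 0 to 917 (higher 0 to 380, lower 0 to 537). The median of all genes moved from -0.03 to -0.25 with the same total. The cause of these changes was not tested. For the difference of injury effects a pseudocount of 4 gave 1 gene (1 higher), and leaving out 1 library 0 to 61 (higher 0 to 5, lower 0 to 56), with 61 without HS 1 week replicate 3. For the other 7 libraries a pseudocount of 0.25 gave 12 (12 higher, 0 lower), a filter at a mean of 5 gave 0 lower, and leaving out 1 library 3 to 49 (higher 3 to 38, lower 0 to 11), with 49 without HS 1 week replicate 2. Dropping NI replicate 1 leaves that contrast without a control and was not run. The same marker sum reversed Myrf (-0.12) and Dcx (-0.16). Leaving out 1 library reversed Ly6c1 (range -0.64 without NI replicate 3 to 1.69) and Gzmb (-1.59 to 0.14 without HS 2 weeks replicate 1), and, in the other 7 libraries, Dynll2 (-0.15 to 0.22) and Olig2 (-0.13 to 0.0779). Over the 30 named genes that passed, 388 of 540 values under the alternatives kept their call and 152 lost it. Their arms did not overlap, so that leaving out 1 library could not turn a direction.

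No paired analysis was possible because the injured and NI libraries compared share fewer than 2 replicate numbers, among the 5 libraries as among the other 7. Where a setting leaves an arm with 1 library, that library is assumed to vary like the others. With 2 NI libraries and 3 injured ones of 3 conditions, a difference between severities or times could not be tested, and genes at a few reads, such as Mcpt2 in NI, have folds that depend on the pseudocount.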
